A study of Ambystoma mexicanum with 6 samples.

Results

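The 48 assembled genes described here were those whose summed level was lower in each of 3 iMDK-treated axolotl limbs than in any of 3 DMSO-treated limbs by a fixed margin. They were chosen by the measured values of that contrast: the lowest value in the DMSO limbs was at least 5 and at least 2 times the highest value in the iMDK limbs. Of 1388798 assembled genes in the matrix, 382903 were above 0 in at least 1 library and 11475 had a lowest DMSO value of at least 5. The rule was met by 49 of these 11475 (0.427%), and c1085159_g2, which carries the name ACY3_HUMAN, was set aside. The same rule turned round, with a lowest iMDK value of at least 5 and at least 2 times the highest DMSO value, was met by 126 of 11720 assembled genes (1.08%). Because the rule used the contrast between iMDK and DMSO, the differences between those groups are given as a description, with no test.

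The limbs were forelimbs of juvenile white axolotls (Ambystoma mexicanum), amputated through the radius and ulna. In the iMDK group the animals were kept in a solution of iMDK, a small molecule used to inhibit midkine, a growth factor. In the DMSO group they were kept in the solvent alone. The study describes the direct target of iMDK as unknown. According to the labels both groups were treated from the time of amputation, and the tissue was taken at 11 days post-amputation (dpa). Each library came from the limb of 1 animal.

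An amputated axolotl limb is first covered by a wound epidermis, under which progenitor cells gather as a blastema that grows into the new limb. Midkine is a secreted growth factor that binds heparin. The transcriptome was assembled from reads without a genome. In an identifier such as c1089923_g1_i3, c marks a connected component of the assembly, g an assembled gene within it and i a transcript (isoform) of that gene. An assembled gene can be a whole gene, a piece of one or a mixture of close copies. All levels below are TPM (a transcript's length-corrected share of its library) multiplied by the authors with a TMM factor per library. Being per length, levels of different genes can be set side by side.

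None of the 48 assembled genes has a name here: 0 matched any of the 1495 assembled genes paired with a protein hit in the tables used here. The only named assembled gene that met the rule, c1085159_g2, had been set aside. Assembly identifiers are not RefSeq names, so a look-up of them could find no RefSeq gene. Whether the members have a RefSeq counterpart was not tested. Those tables come from other comparisons of the study, and its list for iMDK against DMSO was not used here. Among the 11475 assembled genes with a lowest DMSO value of at least 5, 783 (6.82%) have such a name. No function can therefore be given for the members, and no sequence of these transcripts was used here. They are described by level, number of transcripts and on or off pattern.

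The members spanned a wide range of levels, with a mean over the DMSO limbs between 5.505 and 401 TPM and a median of 12.3 TPM, against a median of 18.2 TPM over the 11475. The DMSO mean was at least 100 TPM for 7 members, from 20 to 100 for 14, from 10 to 20 for 8 and below 10 for 19. The 3 highest made up 39.1% of the summed DMSO mean of all 48. Summed over the 48, the level was 359, 262 and 294 TPM in the iMDK limbs and 1936, 2645 and 2308 TPM in the DMSO limbs. The median log2 difference of the members, iMDK minus DMSO on log2(value + 0.5), was -2.24 and ranged from -6.61 to -1.19. Over the 11475 the median was -0.10.

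**Figure D1:**
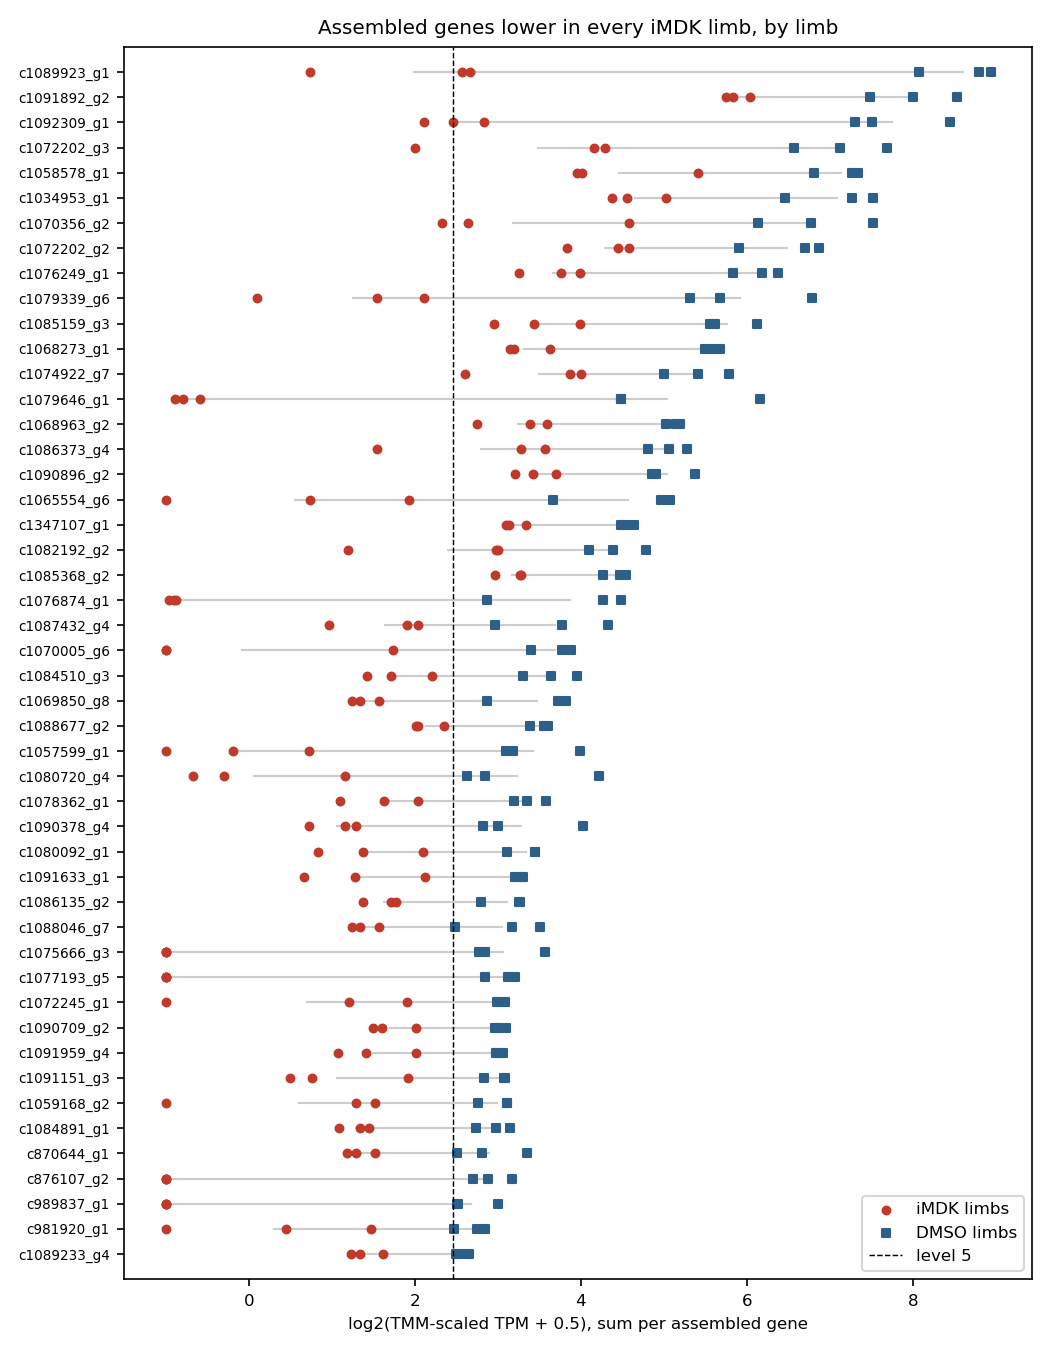
Level of the 48 assembled genes in each limb, as log2 of the TMM-scaled TPM plus 0.5, sorted by the mean of the DMSO limbs. Red circles are the 3 iMDK limbs, blue squares the 3 DMSO limbs, grey lines join the group means and the dashed line marks a level of 5. By the rule no circle reaches a square of its row. The distance between them is widest for c1089923_g1, at a log2 difference of -6.61.

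Most members were lower in iMDK limbs without being listed at 0. The iMDK mean was a median of 20.5% of the DMSO mean, and 40.4% at most, in c1085368_g2. It was under 20% for 22 members, under 10% for 15 and under 5% for 10. The margin set by the rule, the lowest DMSO value over the highest iMDK value, lay between 2 and 3 for 30 members, between 3 and 5 for 8, between 5 and 10 for 1 and above 10 for 5. The other 4 were listed at 0 in all 3 iMDK limbs and have no such ratio. All 3 iMDK values were at or below 5 TPM for 30 members, and at or below 1 TPM for 6.

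**Figure D2:**
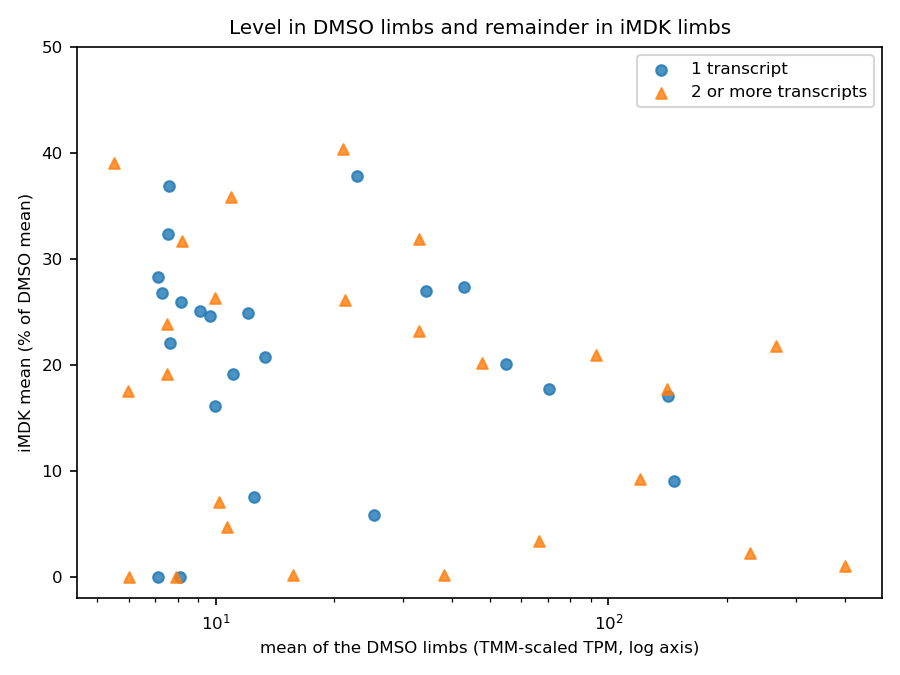
Mean of the 3 iMDK limbs as a percentage of the mean of the 3 DMSO limbs (vertical axis) against the DMSO mean in TMM-scaled TPM (horizontal log axis), for each of the 48 assembled genes. Circles have 1 transcript in the matrix and triangles 2 or more. The points lie between 0 and 40.4%, and those near 0 occur both at DMSO means below 10 TPM and at 401 TPM.

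The member with the highest level, c1089923_g1, was at 5.43, 5.83 and 1.17 TPM in the iMDK limbs, against 269.7, 489.9 and 444 TPM in the DMSO limbs. Its iMDK mean of 4.15 ± 2.59 TPM was 1.03% of the DMSO mean of 401 ± 116 TPM (SD, n = 3 each). All 4 of its transcripts were lower in every iMDK limb. The leading one in DMSO, c1089923_g1_i3, was listed at 0, 1.58 and 0 TPM in iMDK and was at 96.3, 201 and 201 TPM in DMSO. By group means c1089923_g1_i2 had 61.2% of the sum in iMDK and 32.3% in DMSO. It was at 4.165, 2.28 and 1.17 TPM in the iMDK limbs. In iMDK 2 c1089923_g1_i1 and c1089923_g1_i3 stood beside it at 1.98 and 1.58 TPM.

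The near-loss was also deep in the third highest member, c1092309_g1, with a log2 difference of -5.28. It was at 5.01, 3.81 and 6.64 TPM in iMDK limbs and 157, 348 and 182 TPM in DMSO limbs. Here 6 transcripts were assembled and a single one, c1092309_g1_i2, made up 99.3% of the DMSO sum. That transcript was at 2.67, 0 and 0 TPM in iMDK limbs. The minor transcript c1092309_g1_i1 was at 1.29, 3.29 and 5.96 TPM in iMDK limbs and 0, 0 and 2.38 TPM in DMSO limbs, values that overlap, and took 68.2% of the iMDK sum. It was the larger of the pair in iMDK 2 and iMDK 3, while c1092309_g1_i2 was the larger in iMDK 1.

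With a log2 difference of -4.67, c1079339_g6 was at 2.42, 0.572 and 3.81 TPM in iMDK limbs and 39.2, 109 and 50.5 TPM in DMSO limbs. The transcript c1079339_g6_i1 made up 97.7% of its DMSO sum. In DMSO 2 it stood well above the other DMSO limbs.

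The largest margins belonged to 2 members of lower level. The values of c1079646_g1 were 0.0790, 0.0390 and 0.163 TPM in iMDK limbs and 21.9, 21.8 and 70.7 TPM in DMSO limbs, so that the lowest DMSO value was 134 times the highest iMDK value. For c1076874_g1 they were 0.0360, 0.0470 and 0.0160 TPM in iMDK limbs and 18.7, 21.8 and 6.80 TPM in DMSO limbs, a margin of 145. Both varied between the DMSO limbs more than most members, with DMSO coefficients of variation (CV, the SD as a percentage of the mean) of 74.0% for c1079646_g1 and 50.3% for c1076874_g1. The iMDK values were low in all 3 limbs but not 0. In c1079646_g1 the 2 detected transcripts, c1079646_g1_i3 and c1079646_g1_i1, were both low in every iMDK limb, while c1076874_g1 rested on c1076874_g1_i2 for 88.6% of its DMSO sum.

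An on or off pattern in the listed values, with 0 in every iMDK limb, was seen in 4 members. With a cut of at most 0.1 TPM in every iMDK limb the count was 5, and with 0.5 TPM it was 6. The single transcript of c1075666_g3 was listed at 0 in all 3 iMDK limbs and was at 6.66, 11.3 and 6.33 TPM in DMSO limbs. For c1077193_g5, also listed at 0 in each iMDK limb, the DMSO values were 8.24, 8.76 and 6.72 TPM, from 3 detected transcripts. The member c876107_g2, with 1 transcript, was listed at 0 in iMDK limbs and at 6.005, 6.85 and 8.51 TPM in DMSO limbs. Lastly c989837_g1 was listed at 0 in iMDK limbs and at 5.21, 5.25 and 7.54 TPM in DMSO limbs. All 4 had DMSO means below 10 TPM, and no fold is given against a group listed at 0. The smallest step of low values, described below, was larger in each iMDK library than in any DMSO library. Relative to DMSO 1 it was 1.36, 1.13 and 1.02 in iMDK 1, 2 and 3, and 0.942 and 0.947 in DMSO 2 and 3. Its part in the values listed at 0 was not tested. Any of the 11475 assembled genes listed at 0 in all 3 iMDK limbs meets the rule, so each such gene is a member by definition. These 4 were 0.0349% of the 11475.

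A further 6 members were listed at 0 in some of the iMDK limbs. The value of c1070005_g6 was 0, 2.85 and 0 TPM in iMDK limbs and 10.1, 14.3 and 13.1 TPM in DMSO limbs. The other 5 were listed at 0 in 1 iMDK limb each: c1065554_g6, c1057599_g1, c1072245_g1, c1059168_g2 and c981920_g1. The highest of these was c1065554_g6, at 3.32, 0 and 1.17 TPM in iMDK limbs and 33.1, 30.7 and 12.2 TPM in DMSO limbs. Next was c1057599_g1, at 1.15, 0 and 0.376 TPM in iMDK limbs and 8.55, 15.4 and 8.06 TPM in DMSO limbs, with a margin of 6.997. The limb with the 0 was not the same one throughout, being iMDK 1 for c1072245_g1 and c981920_g1, iMDK 2 for c1065554_g6 and c1057599_g1, and iMDK 3 for c1059168_g2. The remaining 38 members were above 0 in all 6 limbs. Of the 11475 assembled genes with a lowest DMSO value of at least 5, 35 (0.305%) were listed at 0 in 1 iMDK limb. Another 3 (0.0261%) were listed at 0 in 2 iMDK limbs. As the members were selected to be low in iMDK limbs, nothing is read from these counts.

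Several abundant members kept a sizeable level under iMDK. The second highest, c1091892_g2, was at 56.7, 53.1 and 65.3 TPM in iMDK limbs and 178, 369 and 255 TPM in DMSO limbs. Its iMDK limbs were close to each other (CV 10.7%), while DMSO 2 lay well above the other DMSO limbs. Its 3 detected transcripts were all lower in every iMDK limb but not to the same extent. The leading DMSO transcript, c1091892_g2_i2, was at 15.4, 17.9 and 22.7 TPM in iMDK and 111, 242 and 154 TPM in DMSO. For c1091892_g2_i3 the values were 31.3, 26.7 and 33.0 TPM in iMDK and 52.1, 102 and 84.6 TPM in DMSO, and it led the sum in iMDK with 52.0%.

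The member c1034953_g1 was at 20.3, 32.0 and 23.0 TPM in iMDK limbs and 154, 87.3 and 182 TPM in DMSO limbs. By group means c1034953_g1_i2 had 58.0% of the sum in iMDK and 62.8% in DMSO. In iMDK 3 it was the smaller of the pair, at 10.7 TPM against 12.2 TPM for c1034953_g1_i1. Unlike c1091892_g2, c1034953_g1 was lowest in DMSO 2, and so was c1070356_g2. The latter was at 23.4, 5.72 and 4.51 TPM in iMDK limbs and 183, 69.9 and 109 TPM in DMSO limbs. In that gene iMDK 1 stood apart from the other iMDK limbs, and the same limb was the high one in c1058578_g1, at 42.0, 14.97 and 15.7 TPM in iMDK limbs and 111, 161 and 154 TPM in DMSO limbs. In c1076249_g1 the 3 iMDK limbs were closer together, at 15.4, 9.06 and 13.0 TPM, against 56.3, 82.6 and 72.2 TPM in DMSO limbs.

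In another set of members iMDK 2 was the low limb. The member c1072202_g3 was at 19.1, 3.50 and 17.4 TPM in iMDK limbs and 94.3, 206 and 139 TPM in DMSO limbs. The same shape was seen in c1086373_g4, at 11.3, 2.43 and 9.19 TPM in iMDK limbs and 33.0, 38.3 and 27.6 TPM in DMSO limbs. It recurred in c1082192_g2, at 7.41, 1.79 and 7.54 TPM in iMDK limbs and 20.5, 27.1 and 16.6 TPM in DMSO limbs, and in c1074922_g7, at 14.1, 5.61 and 15.5 TPM in iMDK limbs and 54.8, 31.4 and 42.1 TPM in DMSO limbs. In these 4 genes iMDK 2 stood below both other iMDK limbs, which were close to each other.

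Some members varied little within a group. For c1347107_g1 the values were 9.65, 8.09 and 8.32 TPM in iMDK limbs and 21.8, 24.4 and 22.7 TPM in DMSO limbs, with CVs of 9.71% in iMDK and 5.62% in DMSO. The member c1085368_g2 was at 9.10, 9.20 and 7.29 TPM in iMDK limbs and 21.7, 22.8 and 18.8 TPM in DMSO limbs. At 8.64, 11.8 and 8.35 TPM in iMDK limbs and 44.5, 50.6 and 47.5 TPM in DMSO limbs, c1068273_g1 was tight in DMSO limbs alone, with CVs of 20.1% in iMDK and 6.42% in DMSO. The median CV of the members was 39.4% in iMDK and 21.7% in DMSO. Over the 11475 it was 16.1% in iMDK and 19.3% in DMSO, so that the members were more variable in iMDK limbs, where their levels are low by the rule.

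The high and low limbs within a group were not spread evenly. DMSO 2 was the highest DMSO limb for 23 of the 48 members (47.9%), DMSO 1 for 15 and DMSO 3 for 10. Over the 11475, DMSO 2 was the highest for 28.1% and DMSO 1 for 42.0%. Of the 44 members above 0 in some iMDK limb, iMDK 1 was the highest for 21 (47.7%), against 51.2% over the 11475. Among the DMSO limbs, DMSO 2 was the highest for 6 of 6 connective tissue markers. It was the highest for 2 of 10 epidermal, 0 of 6 macrophage and osteoclast, 1 of 5 erythrocyte and 1 of 2 muscle markers. What part any of these lists had in the members' values was not tested. With DMSO 2 left out, the median log2 difference of the members was -2.27.

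Nearly a balance was found between members with 1 transcript and those with more. In the matrix 23 of the 48 had 1 transcript (47.9%), against 33.5% of the 11475, and the median was 2 transcripts in both. The most was 9, in c1088677_g2. With only detected transcripts counted, 24 members had 1 and 24 had 2 or more. In these 24 the leading transcript took a median of 82.2% of the DMSO sum. It was lower in every iMDK limb than in any DMSO limb in 23 of the 24. Over all 72296 transcripts with a mean of at least 1 TPM in a group, 6.99% were lower in this way. As the sums were selected to be lower, nothing is read from the count of 23. The exception among the 24 was c1088677_g2, at 3.59, 4.61 and 3.56 TPM in iMDK limbs and 9.93, 11.6 and 11.2 TPM in DMSO limbs as a sum. Its leading transcript c1088677_g2_i2 held only 28.4% of the DMSO sum and was listed at 0 in DMSO 2, although the sum hardly varied between the DMSO limbs.

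Beside the leading ones, 27 further transcripts had a mean of at least 1 TPM in a group. Of these, 16 were lower in every iMDK limb, 10 overlapped and 1 was higher in every iMDK limb. Over all 72296 transcripts with such a mean, 6.99% were lower and 7.42% higher in every iMDK limb, but the sums of the members were selected to be lower and nothing is read from the count. That one was c1090896_g2_i5, at 8.71, 8.57 and 6.64 TPM in iMDK limbs and 6.01, 1.87 and 3.83 TPM in DMSO limbs. The leading transcript of the same gene, c1090896_g2_i2, was at 3.62, 0.992 and 2.06 TPM in iMDK limbs and 34.5, 25.8 and 25.0 TPM in DMSO limbs. As a sum c1090896_g2 was at 12.5, 10.3 and 8.77 TPM in iMDK limbs and 40.9, 28.4 and 29.4 TPM in DMSO limbs. Of the 22 members with several detected transcripts that were above 0 in iMDK limbs, 15 had the same leading transcript in both groups.

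The division of a gene among its transcripts also moved between limbs of 1 group. In c1068273_g1 the transcript c1068273_g1_i3 was at 6.97, 0 and 6.98 TPM in iMDK limbs, and c1068273_g1_i4 at 1.67, 11.4 and 0.901 TPM. The missing share of the first in iMDK 2 was thus taken by the second, and the sum of the gene stayed between 8.35 and 11.8 TPM. In c1072202_g2 the transcript c1072202_g2_i2 was at 12.6, 13.5 and 7.50 TPM in iMDK limbs and 57.0, 112 and 91.7 TPM in DMSO limbs. The minor c1072202_g2_i4, at 10.8, 7.76 and 6.32 TPM in iMDK limbs and 2.30, 4.41 and 12.0 TPM in DMSO limbs, overlapped between the groups. As it made up 42.5% of the iMDK sum, the leading transcript alone was lower by more than the sum.

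**Figure D3:**
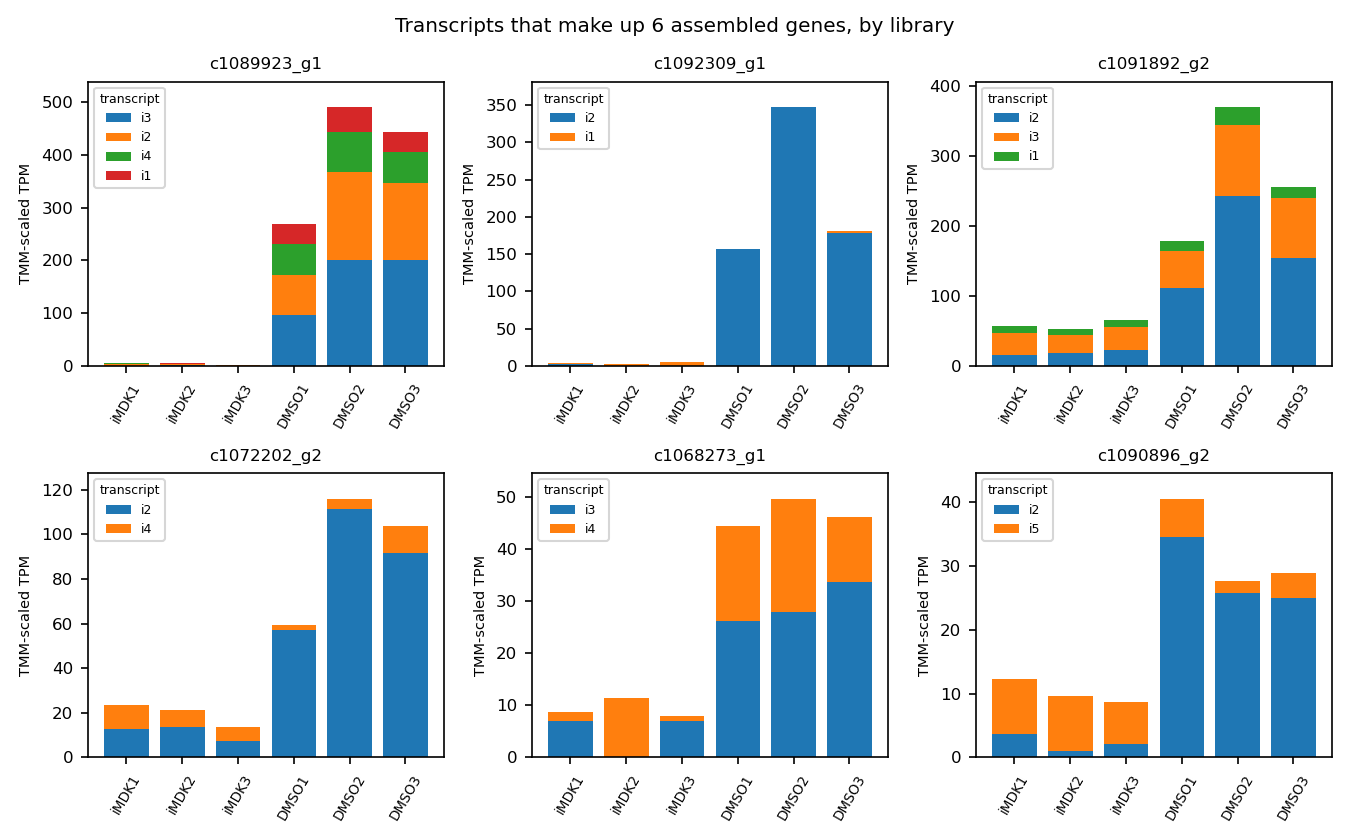
Transcripts with a group mean of at least 1 TPM in 6 of the assembled genes, stacked by library, with iMDK libraries on the left and DMSO libraries on the right of each panel and the vertical axis in TMM-scaled TPM from 0. In c1089923_g1 all transcripts are near 0 in iMDK, in c1068273_g1 iMDK 2 holds i4 in place of i3, and in c1090896_g2 i5 is higher in every iMDK limb while i2 is lower.

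The 48 members came from 47 components of the assembly. The shared one was c1072202, whose member c1072202_g2 was at 23.4, 21.3 and 13.8 TPM in iMDK limbs and 59.3, 116 and 104 TPM in DMSO limbs, beside c1072202_g3 above. In the DMSO limbs both were lowest in DMSO 1 and highest in DMSO 2. The member c1085159_g3, at 15.4, 7.28 and 10.3 TPM in iMDK limbs and 69.3, 46.7 and 48.5 TPM in DMSO limbs, lay in the component of the assembled gene set aside, c1085159_g2. ACY3 is the name of an aminoacylase, an enzyme that removes acyl groups from acylated amino acids, and it was not given to c1085159_g3. The gene c1085159_g2 was at 59.4, 30.7 and 31.3 TPM in iMDK limbs and 208, 163 and 141 TPM in DMSO limbs. Both were highest in iMDK 1 and in DMSO 1 within their groups.

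Apart from members and the gene set aside, 21 assembled genes of these components had a mean of at least 5 TPM over the 6 limbs, in components of 14 members. Of the 21, 6 were lower in every iMDK limb than in any DMSO limb, 15 overlapped and 0 were higher in every iMDK limb. Over all 14288 assembled genes with such a mean, 12.7% were lower in every iMDK limb and 8.87% higher. The median log2 difference of the 21 was -0.02, against -0.05 over the 14288. Assembled genes that met the rule were not counted among these neighbours in the assembly. How far neighbours share the difference of a member can therefore not be read from the 21.

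The neighbour nearest to the rule was c1076249_g6, at 112, 40.3 and 39.8 TPM in iMDK limbs and 199, 295 and 230.1 TPM in DMSO limbs, with a margin of 1.78. It followed the member c1076249_g1 in being highest in DMSO 2. The neighbour c1089923_g2, at 4.19, 3.03 and 2.02 TPM in iMDK limbs and 6.49, 7.81 and 9.08 TPM in DMSO limbs, was lower as well, by far less than c1089923_g1. The others without overlap were c1075666_g2, c1069850_g9, c1090709_g3 and c1090709_g7, with log2 differences between -0.94 and -0.22. Other neighbours went with no difference: c1065554_g5 was at 62.1, 61.6 and 67.0 TPM in iMDK limbs and 71.8, 55.9 and 62.3 TPM in DMSO limbs, beside the much lower c1065554_g6. The only named neighbour was c1091633_g2, with a hit to otoancorin (OTOAN_HUMAN), a protein of the inner ear in mammals, at 61.3, 78.3 and 58.4 TPM in iMDK limbs and 19.2, 74.9 and 73.7 TPM in DMSO limbs. The member of that component, c1091633_g1, was at 3.85, 1.08 and 1.93 TPM in iMDK limbs and 8.73, 9.39 and 9.22 TPM in DMSO limbs.

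**Figure D4:**
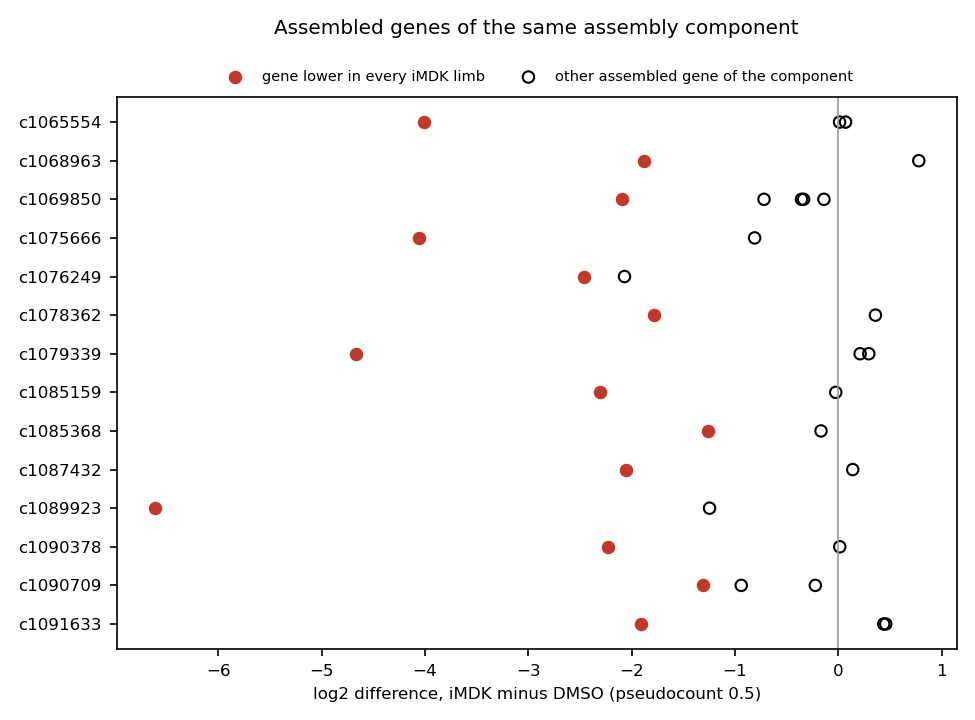
Log2 difference (iMDK minus DMSO, pseudocount 0.5) of members (filled circles) and of the other assembled genes with a mean of at least 5 TPM (open circles) in the 14 components that hold both, with ACY3 left out. Filled circles lie at -1.26 or below and most open circles near 0, the lowest being c1076249_g6 at -2.07.

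Some low members took values on a coarse scale. TPM keeps no read totals, but the smallest steps of low values can be compared between libraries. In genes of 1 transcript the step was worth 1.36, 1.13 and 1.02 times that of DMSO 1 in iMDK 1, 2 and 3, and 0.942 and 0.947 times in DMSO 2 and 3. The 6 values were divided by these factors. In 5 of the 23 members with 1 transcript they were then whole multiples, within 0.06, of a single step. The check started from the lowest value above 0 as the step, and the largest multiple had to be from 3 to 15. Members outside that range could not pass, and those whose lowest value was more than 1 step could fail. The 5 need not be all the coarse members. Their step lay between 1.57 and 1.81 TPM. If that step is 1 read, c1088046_g7 had 1, 1 and 1 reads in the iMDK limbs and 6, 3 and 5 in the DMSO limbs, at 2.46, 2.04 and 1.86 TPM in iMDK and 10.9, 5.10 and 8.53 TPM in DMSO. On the same reading c1069850_g8 had 1, 1 and 1 in iMDK against 7, 4 and 8 in DMSO, and its iMDK values were identical to those of c1088046_g7. The others were c870644_g1 with 1, 1 and 1 in iMDK against 3, 6 and 4 in DMSO, c1072245_g1 with 0, 1 and 2 in iMDK against 5, 5 and 5 in DMSO, and c1091959_g4 with 1, 2 and 1 in iMDK against 5, 5 and 5 in DMSO. With those 5 left out, a choice made after seeing the data, the median log2 difference of the other 43 was -2.26. Those 43 may still hold coarse members.

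**Figure D5:**
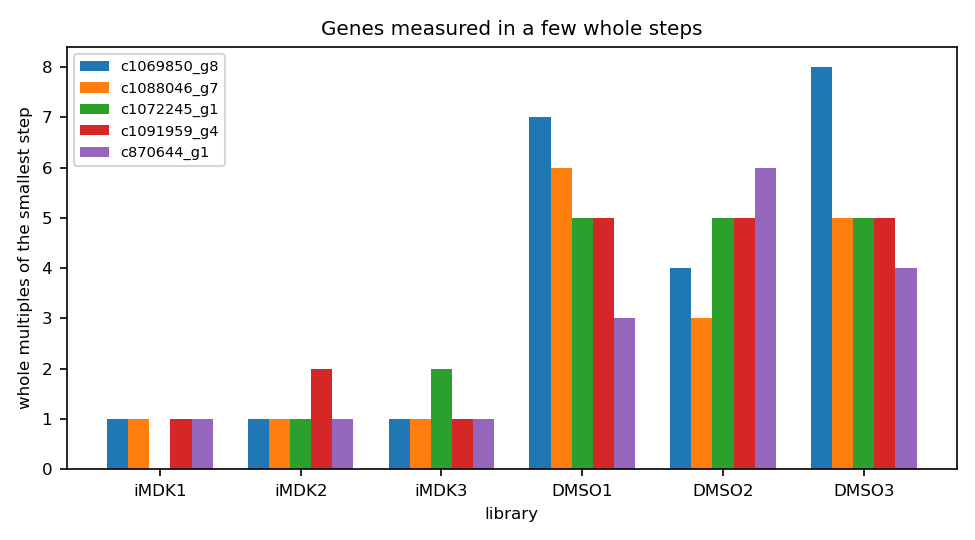
Values of the 5 assembled genes that fall on whole multiples of 1 step, as that multiple (vertical axis), in each iMDK library (left) and DMSO library (right). The multiples run from 0 to 2 in iMDK libraries and from 3 to 8 in DMSO libraries.

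Some members lay close to a threshold of the rule. Just inside the level of 5 were c981920_g1, c1088046_g7 and c1089233_g4, with lowest DMSO values of 5.07, 5.10 and 5.16 TPM. Just outside it were c1087772_g3, c1087735_g1 and c1069904_g2, at 4.84, 4.83 and 4.62 TPM. Just inside the margin of 2 were c1089233_g4, c1091151_g3 and c1087432_g4, at ratios of 2.01, 2.01 and 2.02, and just outside c1081939_g3, c1083172_g2 and c1082433_g12, at 1.99, 1.98 and 1.97. The gene c1089233_g4 was thus near both, at 2.57, 1.85 and 2.04 TPM in iMDK limbs and 5.81, 5.55 and 5.16 TPM in DMSO limbs. Of the other genes that had been named to be left out, NOX1 (c1074572_g1) and NOXO1 (c1079274_g1) did not meet the rule. The values were 1.89, 1.29 and 3.17 TPM in iMDK limbs and 5.501, 3.68 and 9.36 TPM in DMSO limbs for NOX1. For NOXO1 they were 7.04, 7.93 and 16.2 TPM in iMDK limbs and 16.6, 30.2 and 55.4 TPM in DMSO limbs.

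A limma fit over all 44342 assembled genes with a value of at least 1 TPM in at least 3 libraries called 10 as lower in iMDK (0.0226%). A call needed a fold above 2 together with an adjusted p (Benjamini-Hochberg) under 0.05. All 10 were members. The fit and the rule read the same contrast, so nothing is taken from that count. The 10 were c1068273_g1, c1075666_g3, c1076249_g1, c1076874_g1, c1077193_g5, c1079646_g1, c1089923_g1, c1092309_g1, c876107_g2 and c989837_g1, and include the 4 members listed at 0 throughout iMDK. The calls, of members and of other genes, depended on having all 6 libraries. With any 1 of the 6 left out, limma called 0 to 1 members. Assembled genes called higher in iMDK went from 14 with all libraries to between 0 and 2 with 1 left out. Between 1070 and 1506 of the 44342 assembled genes were then lower by a fold above 2 at an unadjusted limma p under 0.05.

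The labelled tissue was checked against 5 lists of cell type markers. In these bulk samples of limb tissue fewer cells of a type and less RNA per cell cannot be told apart. The summed connective tissue markers (6 of 6 detected) ranged from 1631 to 1676 TPM in iMDK and from 826 to 2028 TPM in DMSO, so the groups overlapped. The epidermal sum (10 of 10) ranged from 12740 to 14727 TPM in iMDK and from 9016 to 13374 TPM in DMSO. Macrophage and osteoclast markers (6 of 6) ranged from 5667 to 7362 TPM in iMDK and 4668 to 5600 TPM in DMSO, and erythrocyte markers (5 of 5) from 43.4 to 81.6 TPM in iMDK and 7.52 to 15.3 TPM in DMSO, both sums without overlap. The muscle list held only MYH3 and ABRA (2 of 2). Their sum was near 0, from 2.31 to 5.31 TPM in iMDK and 1.12 to 2.64 TPM in DMSO. In each of the 5 lists 0 markers were lower in every iMDK limb than in any DMSO limb. Higher in every iMDK limb were 3 of the 10 epidermal markers, 2 of the 6 macrophage and osteoclast markers (GILT and CD63) and 3 of the 5 erythrocyte markers. Over all 14288 assembled genes with a mean of at least 5 TPM, 12.7% were lower and 8.87% higher in every iMDK limb. The other 4 macrophage and osteoclast markers overlapped, among them MPEG1, at 2229, 461 and 1502 TPM in iMDK and 374, 303 and 1931 TPM in DMSO. The epidermal entries K1C24 and K1C4 name the same assembled gene. The part of these markers in the members' values was not tested. The number of transcripts detected ranged from 126965 to 187313 in iMDK libraries and from 135719 to 198094 in DMSO libraries.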

How the data were processed

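Limbs were compared between 3 iMDK and 3 DMSO libraries, grouped by the labels. Per the methods, reads were cleaned by the authors (Trimmomatic) and pseudo-aligned by kallisto to a transcriptome assembly of the axolotl, with tool versions not given in the sources used. The deposited signal was TPM per assembled transcript, scaled by the authors with TMM. It holds no counts, so depth is unknown and no counting interval was computed.

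Transcripts were summed per assembled gene (the part of the identifier before the isoform) in Python 3.11.15 with pandas 2.3.3, and plots were drawn with matplotlib 3.10.9. Members and lists were chosen with earlier results of these data known. Named genes were the 10 highest in DMSO, those listed at 0 in all iMDK limbs, the 8 largest margins, the 4 with most transcripts and the 3 on each side of a threshold. Other members were chosen after their values were seen, as were the whole-step check (tolerance 0.06) and the reported neighbours. The count of calls came from limma 3.58.1 in R 4.3.3, over the 44342 assembled genes that passed the filter. It used log2(value + 0.5), moderation with a trend on the mean level and 2-sided p-values. The same kind of fit was run on simulated data with normal noise, which does not test the calls in these limbs. The limma p-values reflect variation among these limbs alone. Alternatives changed thresholds, scaling, pseudocount, filter, unit, block and libraries.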

Additional observations from a re-analysis of the deposited data

How the results depend on the processing

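The number of assembled genes that met the rule, 48, was 63 with the TMM scaling undone (47 of them shared), 41 with median-of-ratios scaling (40 shared) and 47 after quantile normalization (42 shared). It became 579 with a level of 1, 22 with a level of 10, 138 with a margin of 1.5 and 11 with a margin of 4. On single transcripts it was 134 assembled genes, of which 42 were members, and on sums per component 32. Applied again to 5 libraries it ranged from 83 to 122, as fewer libraries have to be passed. Members called by limma, 10, were 3 with a pseudocount of 0.1, 31 with no filter, 18 without the trend and 6 with the TMM scaling undone. They were 0 with the replicate block and 0 to 1 with a library left out. Under the block, 1261 of all 44342 genes were lower by a fold above 2 at an unadjusted limma p under 0.05. Where these counts moved the cause was not tested, apart from the thresholds themselves. Correlations of deviations, not of levels, between same-numbered limbs of the 2 groups were 0.071, 0.058 and 0.0046. Between limbs of different number they ranged from -0.106 to 0.0571. The log2 levels themselves correlated at 0.820, 0.805 and 0.827 between same-numbered limbs. Between limbs of different number in the 2 groups the levels correlated at 0.794 to 0.828. With 3 limbs per group these values cannot settle whether the numbers pair limbs. Of 480 single log2 differences recomputed, 465 moved by less than 1 SD and 0 changed sign. By the rule no sign could change with another pseudocount or a library left out, so nothing is read from the signs. Depth is unknown, so its limit on members near 5 TPM was not tested.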
